A study of Mus musculus with 2 samples.

Results

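Mir31, Mir489, Mir221 and Mir222 are microRNA genes known from muscle stem cells, and their levels were read in whole gastrocnemius, a large muscle of the calf. They are 4 of 2202 genes in the deposited count tables and were taken by name, through gene identifiers matched to GENCODE M21. All 2202 are called microRNA genes here, although some carry other names, such as Snord43 and n-TSaga9, and gene types were not checked. The 4 named members were all detected, which here means at least 2 CPM in both libraries, as were 324 genes in all. CPM are counts on the strand of the gene, scaled to a library total of 1000000 over all microRNA genes. The libraries came from total RNA of female B6CASTF1/J mice (a cross of C57BL/6J with CAST/EiJ) aged 25 days, and formed 1 group of 2 biological replicates. The labels number the females separately but give 1 donor identifier for both, so an SD here is the spread between these libraries and may not be that between animals. The labels name no treatment and no further tissue, so no conditions could be compared.

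MicroRNAs are short RNAs cut from hairpin precursors. They pair with messenger RNAs mainly through bases 2 to 8 from the 5′ end, the seed, and lower the protein made from them. Satellite cells, the stem cells of skeletal muscle, lie quiescent beside the fibres and are activated by injury and growth. In earlier work, miR-31 held back translation of Myf5, a myogenic regulator, in quiescent satellite cells, and miR-489 held back Dek, an oncogene product of dividing cells. The cluster of miR-221 and miR-222 represses Cdkn1b, the cell cycle inhibitor p27, and declines as myoblasts leave the cell cycle. None of these microRNAs is restricted to satellite cells: miR-221 and miR-222 are also made in blood vessels, and miR-31 in skin epithelium. In bulk tissue, fewer cells of a type and less RNA per cell cannot be told apart.

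The mature sequences below, from RefSeq on GRCm38.p6, show which of these microRNAs share a seed, given in capitals. The arm shown for each hairpin is the one known to act in muscle, with the same-seed microRNAs of other loci.
mmu-miR-31-5p: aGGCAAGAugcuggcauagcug
mmu-miR-489-3p: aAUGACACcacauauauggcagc
mmu-miR-425-5p: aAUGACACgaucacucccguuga
mmu-miR-221-3p: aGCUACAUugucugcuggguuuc
mmu-miR-222-3p: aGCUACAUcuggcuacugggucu
mmu-miR-1928: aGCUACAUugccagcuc

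The miR-31-5p seed was found in no other of the 1738 mature entries. miR-221-3p and miR-222-3p are identical over their first 8 bases and differ at 12 of 23 positions counted from the 5′ end, all from base 9 on. miR-489-3p has the same first 8 bases as miR-425-5p, the product of an unrelated locus.

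Each count is of a hairpin as a whole, with no split by arm. The hairpins follow, with the mature arms listed in RefSeq in capitals, to show what a count of each gene can hold.
Mir31, chr4:88910557-88910662, reverse strand: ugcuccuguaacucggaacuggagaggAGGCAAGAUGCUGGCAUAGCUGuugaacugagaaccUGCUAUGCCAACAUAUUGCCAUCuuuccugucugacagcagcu
Mir489, chr6:3721897-3722003, reverse strand: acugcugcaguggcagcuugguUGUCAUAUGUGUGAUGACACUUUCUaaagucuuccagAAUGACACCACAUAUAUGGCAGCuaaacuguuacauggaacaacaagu
Mir221, chrX:19146294-19146388, reverse strand: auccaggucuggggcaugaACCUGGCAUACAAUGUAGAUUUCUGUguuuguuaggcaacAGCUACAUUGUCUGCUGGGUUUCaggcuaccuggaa
Mir222, chrX:19146893-19146971, reverse strand: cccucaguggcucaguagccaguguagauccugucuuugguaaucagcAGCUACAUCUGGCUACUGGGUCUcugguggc

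None of the 4 hairpins shares a stretch of 15 bases, on either strand, with any of the other 1004 RefSeq hairpins. Their GC content is 50% for Mir31, 42.1% for Mir489, 47.4% for Mir221 and 54.4% for Mir222, beside a median of 51.7% over all 1005 hairpins. In GENCODE M21, Mir31 (ENSMUSG00000065408.1) lies in exon 3 of AL805899.1, a gene for a long non-coding RNA. Mir489 (ENSMUSG00000070107.1) lies in intron 4 of Calcr in 3 of its 5 transcripts and in intron 2 of the others. Calcr encodes the calcitonin receptor, which marks quiescent satellite cells. Mir221 (ENSMUSG00000065422.1) and Mir222 (ENSMUSG00000065471.1) lie between genes, 504 bases apart.

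The libraries differed in depth. Replicate 1 held 1573213 counts on the strand of microRNA genes and replicate 2 held 5429127, so a count of 0 allows up to 1.91 and 0.553 CPM. A further 68.6% and 69.7% of the reads aligned to several places and count for no gene. Intervals are computed from the counts alone and cover counting error only. No molecular identifiers were used, so the intervals do not allow for reads duplicated by amplification. Recovery in small RNA libraries differs between sequences, so a level is a share of reads and not a number of molecules. No length scaling was made, because the listed mature arms of the 4 genes are alike in length, 22 to 26 bases.

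Mir221 was the most abundant of the 4 genes and Mir489 the least, with Mir222 and Mir31 in between. Mir221 had 978 counts in replicate 1, or 622 CPM (exact Poisson 95% interval 583 to 662). In replicate 2 it had 1761 counts, or 324 CPM (309 to 340). Its mean of 473 CPM ± 210 (SD, n = 2) placed it 97th of the 2202 genes.

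Mir222 had 152 and 287 counts, or 96.6 CPM (81.9 to 113) in replicate 1 and 52.9 CPM (46.9 to 59.3) in replicate 2. Its mean was 74.7 ± 30.9 CPM (SD, n = 2), at rank 184. Mir221 and Mir222 were thus the members with the most reads, and the intervals of the libraries did not overlap for either, with replicate 1 the higher. The share of all genes without such overlap was not computed. An exact binomial test between the libraries, given below, called 45.3% of 364 tested genes.

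Mir31 had 23 and 51 counts, or 14.6 CPM (9.27 to 21.9) in replicate 1 and 9.39 CPM (6.99 to 12.4) in replicate 2. Its mean was 12.0 ± 3.70 CPM (SD, n = 2), at rank 257. The intervals of the libraries overlapped for this gene.

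Mir489 had 5 counts in replicate 1 and 11 in replicate 2, or 3.18 CPM (1.03 to 7.42) and 2.03 CPM (1.01 to 3.63). Its mean was 2.60 ± 0.815 CPM (SD, n = 2), at rank 328. In replicate 2 it lay just above the detection minimum of 2 CPM, and the lower bound of its interval was below that minimum in both libraries. Only 2 of the 324 detected genes had a lower mean.

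**Figure D1:**
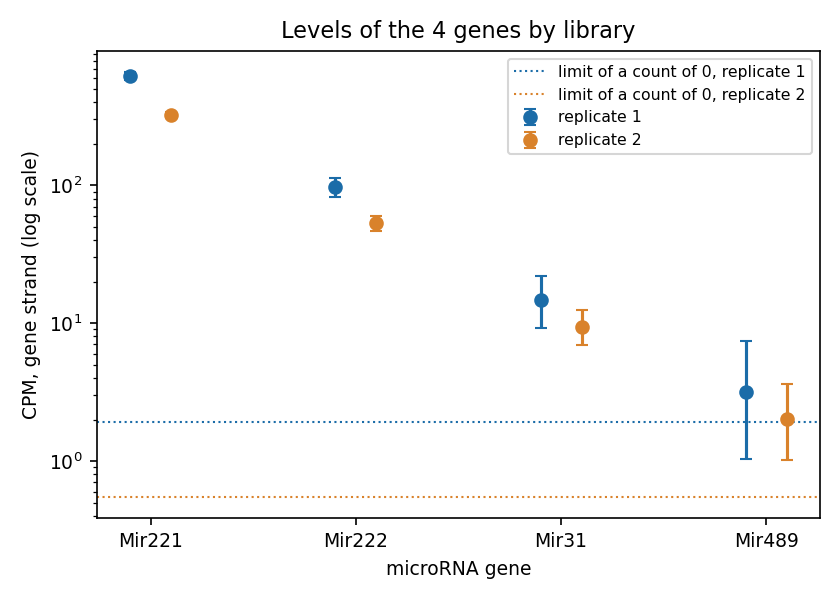
CPM of each gene (log scale) in replicate 1 (blue) and replicate 2 (orange), with exact Poisson 95% intervals; dotted lines mark the level that a count of 0 allows in each library. The order Mir221, Mir222, Mir31, Mir489 is the same in both libraries, and the points of neighbouring genes do not overlap.

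The order of the 4 genes held in each library, and the CPM values of neighbours in it did not overlap over the libraries. The lower Mir221 value, 324 CPM, was above the higher Mir222 value, 96.6 CPM. The lower Mir222 value, 52.9 CPM, was above the higher Mir31 value, 14.6 CPM. The lower Mir31 value, 9.39 CPM, was above the higher Mir489 value, 3.18 CPM. Across the libraries, the intervals of Mir31 in replicate 2 (6.99 to 12.4) and of Mir489 in replicate 1 (1.03 to 7.42) did overlap. Mir221 alone held 84.5% of the summed counts of the 4 genes in replicate 1 and 83.5% in replicate 2.

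The 4 genes together were a small part of the pool, 0.0736% of the microRNA counts in replicate 1 and 0.0389% in replicate 2. Reads aligned to several places are not in this pool, so shares, ranks and the median hold for assigned reads only. The median level of a detected gene was 130 CPM. Mir221 was above it in both libraries, and Mir222, Mir31 and Mir489 were below it in both. Mir206, the microRNA specific to skeletal muscle, had 34864 and 72482 CPM. Its counts were 56.1 and 223 times those of Mir221, and 2385 and 7716 times those of Mir31. All 9 listed genes of striated muscle were detected, among them the marker Mir206, so the libraries carry the markers of the labelled tissue. The 4 immune and 2 erythroid markers passed the same minimum, as did 6 of 10 epithelial and 1 of 7 nerve markers. Detection alone thus does not set the tissue apart.

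**Figure D2:**
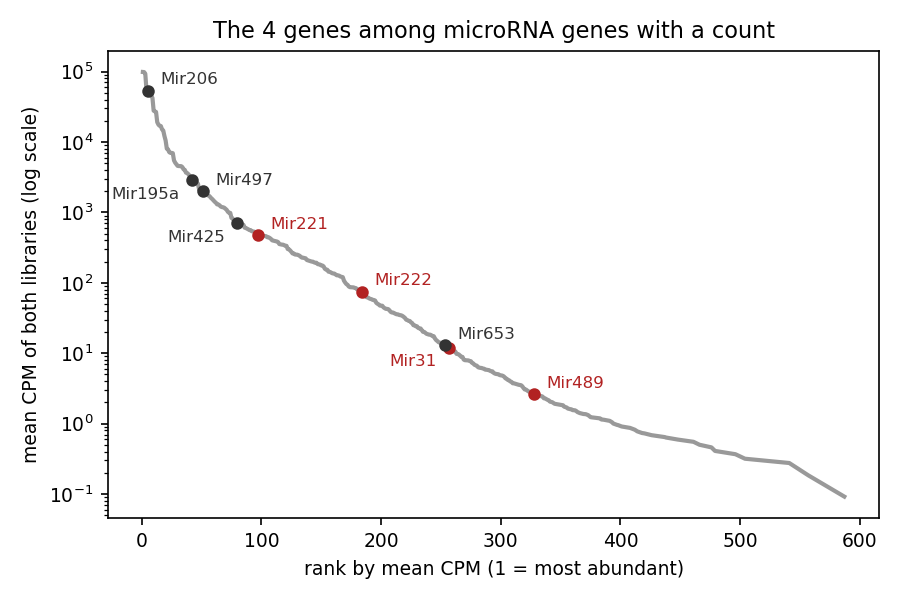
Mean CPM of both libraries (log scale) against rank for microRNA genes with at least 1 count; red points are the 4 genes and black points are genes named beside them. Mir221 lies at rank 97, Mir222 at 184, Mir31 at 257 and Mir489 at 328.

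Mir222 and Mir221 kept nearly the same ratio in both libraries. Mir222 made up 13.5% of the summed counts of the pair in replicate 1 (exact binomial 95% interval 11.5 to 15.6) and 14.0% in replicate 2 (12.5 to 15.6). The ratio of Mir222 to Mir221 was 0.155 and 0.163, a mean of 0.159 ± 0.00534 (SD, n = 2). Each gene by itself differed nearly as much between the libraries as the other, so their ratio moved far less than their levels. Such a ratio was not particular to this locus. Mir489 to Mir31, on different chromosomes, had ratios of 0.217 and 0.216, on only 5 and 11 counts of Mir489. The ratio of Mir708 to Mir221 was 1.02 and 0.897, and that of Mir221 to Mir206 was 0.0178 and 0.00448. The third microRNA with this seed, Mir1928, had no count in either library, which allows up to 1.91 and 0.553 CPM of assigned reads. Its listed mature sequence has only 17 bases, and reads aligned to several places were not assigned to any gene. Among hairpins with the seed GCUACAU, counts were thus seen for Mir221 and Mir222 only.

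Mir489 was the lesser hairpin both of its intron and of its seed. Mir653, a second microRNA of the same Calcr intron, lies 511 bases from Mir489. It had 17 and 82 counts, or 10.8 and 15.1 CPM, a mean of 13.0 ± 3.04 CPM (SD, n = 2). Mir489 made up 22.7% of the counts of the pair in replicate 1 (exact binomial 95% interval 7.82 to 45.4) and 11.8% in replicate 2 (6.05 to 20.2). These intervals overlapped and are wide, since Mir489 had 5 counts in replicate 1. The log2 ratio of replicate 2 over replicate 1 was 0.45 for Mir653 and -0.72 for Mir489, and neither passed the exact binomial test. The difference between the shares was not tested.

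Mir425, whose product miR-425-5p has the seed of miR-489-3p, was far more abundant than Mir489. It had 756 and 669 CPM, a mean of 712 ± 61.5 CPM (SD, n = 2). Mir489 made up 0.419% of the summed counts of the pair in replicate 1 (exact binomial 95% interval 0.136 to 0.975) and 0.302% in replicate 2 (0.151 to 0.540). Of the hairpins with the seed AUGACAC, Mir425 thus held almost all counts, whichever arm they came from. No other mature entry holds the seed of miR-31-5p, so among the listed microRNAs its counts are those of the Mir31 hairpin. Those 14.6 and 9.39 CPM hold both arms. Matches elsewhere in the genome were not searched.

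**Figure D3:**
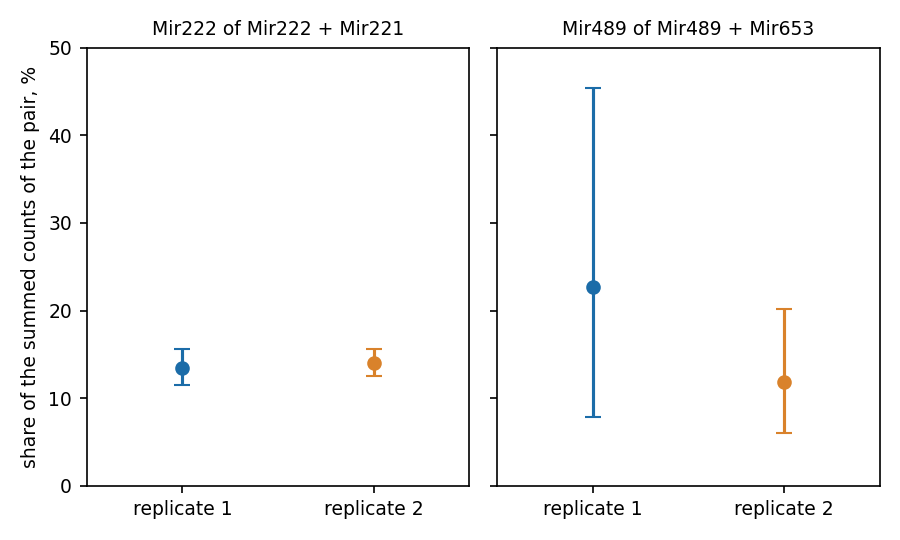
Share of the summed counts of a pair from the same locus, in percent, with exact binomial 95% intervals: Mir222 of Mir222 and Mir221 (left) and Mir489 of Mir489 and Mir653 (right). The share of Mir222 is 13.5% and 14.0%; the intervals of Mir489 are wide and overlap.

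All 4 genes had lower CPM in replicate 2 than in replicate 1, and for Mir221 and Mir222 the difference was larger than counting error. Mir221 was 1.92-fold higher in replicate 1 (log2 ratio of replicate 2 over replicate 1 -0.94, exact 95% interval -1.05 to -0.82). Its adjusted p was 1.81e-54 in a two-sided exact binomial test with Benjamini-Hochberg adjustment over all 364 genes that had 10 or more counts in the libraries together. Mir222 was 1.83-fold higher in replicate 1 (log2 ratio -0.87, -1.16 to -0.58; exact binomial test, adjusted p = 3.02e-08).

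Mir31 and Mir489 did not pass the test. The log2 ratio of Mir31 was -0.66 (exact 95% interval -1.37 to 0.14; exact binomial test, adjusted p = 0.173). That of Mir489 was -0.72 (-2.29 to 1.23; adjusted p = 0.540 in the same exact test). Their intervals include both no difference and the ratio of Mir221.

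Such differences were common in the table. The test called 45.3% of the 364 genes, 30.2% as higher in replicate 1 and 15.1% as higher in replicate 2. These were 110 and 55 genes, or 80 and 94 with DESeq2 size factors. Of the 4 genes here, 2 were called, both as higher in replicate 1. The log2 ratio was at or below that of Mir221 in 15.4% of tested genes, at or below that of Mir222 in 16.2%, and at or below those of Mir489 and Mir31 in 19.5% and 21.4%. The median log2 ratio was -0.80 over the 4 genes and -0.15 over all tested genes, of which 60.7% were lower in replicate 2. From edgeR, fitted over the 324 detected genes, the spread between the libraries was a biological coefficient of variation of 24.6%, which gives log2 ratios an SD of 0.50. That SD holds no counting error, which is large for Mir31 and Mir489. The ratios of all 4 genes were below -0.50, as were those of 24.5% of all tested genes. The intervals of Mir31 and Mir489 reached above -0.50. The test compares reads of 2 libraries of 1 group, not conditions, and has no replicate check.

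**Figure D4:**
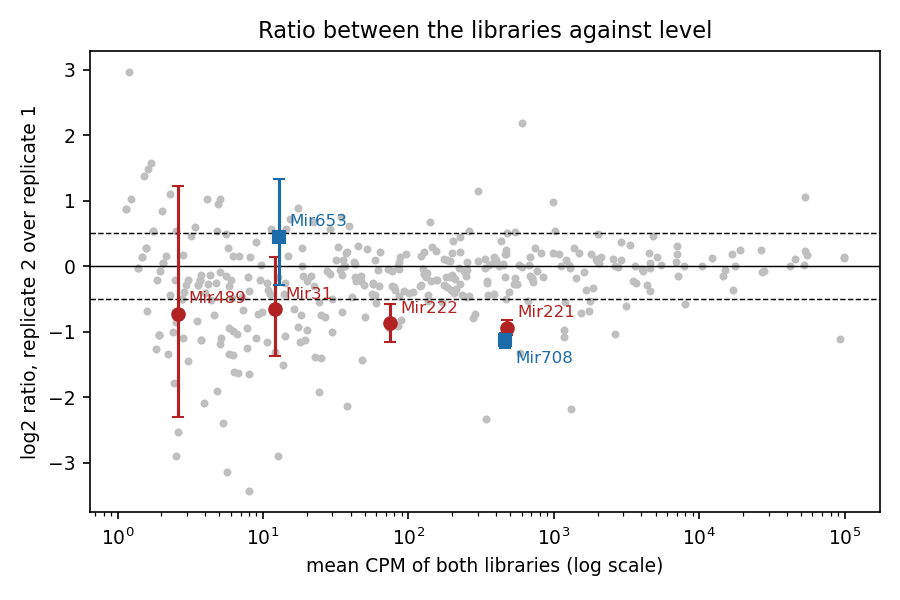
Log2 ratio of replicate 2 over replicate 1 against mean CPM (log scale) for the 364 tested genes (grey); red points are the 4 genes, blue squares Mir653 and Mir708, bars exact 95% intervals, and dashed lines an SD of 0.50. The 4 genes lie between -0.94 and -0.66, and Mir653 lies at 0.45.

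Genes with the same pattern of levels were sought as the 3 with the smallest distance in log2(CPM + 1) over both libraries, among 362 genes with at least 2 CPM in either. Nearest to Mir221 were Mir15b at 632 and 312 CPM, Mir708 at 636 and 291 CPM, and Mir29c at 549 and 389 CPM. Nearest to Mir222 were Mir122 at 96.6 and 50.3 CPM, Mir199b and Mir34c. Mir31 lay nearest to Mir6240, Mir5121 and Mir331, with 18 to 20 counts in replicate 1 and 52 or 53 in replicate 2. Mir489 lay nearest to Mir488, Mir383 and Mir181b-1, each with 5 counts in replicate 1. With 2 libraries this measure ranks genes by level and ratio only.

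Other microRNAs tied to satellite cell quiescence were far more abundant than Mir31 and Mir489 and did not move as a group. Of 4 names listed, 3 matched the tables and all 3 were tested. Mir708, known to hold satellite cells in their niche, was 2.19-fold higher in replicate 1 (log2 ratio -1.13, exact 95% interval -1.24 to -1.01; exact binomial test, adjusted p = 6.09e-76). Mir195a had 2804 and 2991 CPM, and Mir497, its cluster partner, had 1931 and 2038 CPM. Both are known to arrest the cell cycle in satellite cells. Both were called higher in replicate 2, with log2 ratios of only 0.09 and 0.08 that lay within the SD of 0.50. The level of Mir497 rests on strand, since Mir497b is annotated opposite to it and its reads were tallied there as 3038 and 11065 opposite-strand counts.

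Of 25 listed microRNAs of myogenic differentiation or activation, all were detected and tested. The exact binomial test called 7 as higher in replicate 1 and 7 as higher in replicate 2, with a median log2 ratio of 0.07. With TMM scaling the split was 6 and 11, and with DESeq2 size factors 5 and 12. Over all 364 tested genes, 30.2% were called higher in replicate 1 and 15.1% in replicate 2 with library totals. Among those called higher in replicate 2 were Mir206, with a log2 ratio of 1.06, Mir133a-1 with 0.89 and Mir214 with 0.49. Among those called higher in replicate 1 were Mir322, with -0.36, and Mir503 with -0.43. Both are of a cluster known to promote cell cycle exit in myoblasts. Mir351 of the same cluster did not pass, with 0.02 (exact binomial test, adjusted p = 0.778). The lowest ratios among those called were -1.91 for Mir133a-2, on 12 and 11 counts, and -1.24 for Mir29b-2, on 17 and 25 counts. Several listed genes with copies elsewhere, such as Mir1a-1 and Mir133a-1, have uncertain levels because reads aligned to several places were not assigned.

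Markers of other cell types also differed between the libraries. Their calls stand beside the 30.2% of all 364 tested genes called higher in replicate 1 and the 15.1% called higher in replicate 2. The 4 genes summed to 736 CPM in replicate 1 and 389 CPM in replicate 2, a 1.89-fold difference. The sum over the 5 smooth muscle and fibroblast markers in the table was 2.10-fold higher in replicate 1, at 132824 and 63364 CPM, almost all of it from Mir143 at 127590 and 59272 CPM. Of the 4 tested, Mir143 and Mir145a were called higher in replicate 1, and Mir214 was called higher in replicate 2 with a log2 ratio of 0.49. The 10 epithelial markers were 2.03-fold higher, at 518 and 255 CPM, and 7 of the 8 tested were called higher in replicate 1, or 6 with DESeq2 size factors. Mir203 carried most of this sum, at 360 and 217 CPM, and the median log2 ratio of the 8 was lower, at -2.02. The 2 erythroid markers were 4.60-fold higher, at 2703 and 587 CPM.

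The 7 nerve markers, nearly all from Mir338, were 2.11-fold higher in replicate 1, and Mir124a-1, Mir124a-2, Mir124a-3 and Mir9-2 among them had no count. The 4 immune markers in the table were 1.35-fold higher in replicate 1, with 3 called higher there. With TMM scaling 2 were called higher in replicate 1, and with DESeq2 size factors 2 in replicate 1 and 1 in replicate 2. The endothelial marker Mir126a moved the other way, from 93328 to 103367 CPM. The 9 striated muscle markers summed to 36362 and 74995 CPM, higher in replicate 2, and 5 of them were called higher in replicate 2 and 2 in replicate 1, or 5 and 1 with DESeq2 size factors. The lists overlap and are not independent. Mir206, Mir1a-2 and Mir486 among the muscle markers are also in the differentiation or activation list, as are the markers Mir214 and Mir155. The part of these cell types in the levels of the 4 genes was not tested.

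**Figure D5:**
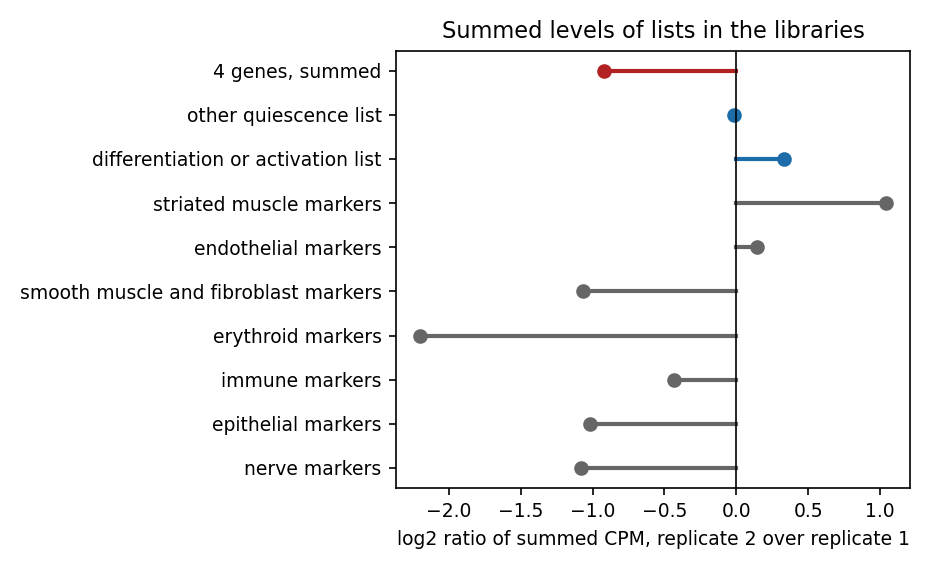
Log2 ratio of summed CPM, replicate 2 over replicate 1, for the 4 genes (red), the lists tied to satellite cells and myogenesis (blue) and the marker lists (grey). Some genes, such as Mir206, are in both a blue and a grey list. The 4 genes lie at -0.92 and the striated muscle markers at 1.04; most sums are carried by single genes, among them Mir221, Mir206, Mir143, Mir203 and Mir338.

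The 3′ untranslated regions of the named targets were searched, on the strand of the messenger RNA, for the match to seed bases 2 to 8. The stretches below, from GENCODE M21 transcripts on GRCm38 and with the match in capitals, show the letters with which each of the 4 microRNAs could pair.
Myf5 for miR-31-5p, chr10:107483895-107483917, reverse strand: ggttgtaaatactgTCTTGCCac
Dek for miR-489-3p, chr13:47085356-47085378, reverse strand: gctttgccctcaaaGTGTCATca
Dek for miR-489-3p, chr13:47085326-47085348, reverse strand: tgtgttaactctaaGTGTCATag
Cdkn1b for miR-221-3p and miR-222-3p, chr6:134924417-134924439, forward strand: tctaaaagcattggATGTAGCat

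Myf5 held 1 match to TCTTGCC, from base 117 after the stop codon, and Dek held 2 matches to GTGTCAT, from bases 704 and 734. Cdkn1b held 1 match to ATGTAGC, which both miR-221-3p and miR-222-3p can pair with through their shared seed. It begins at base 198 after the stop codon in the 2 transcripts with a spliced 3′ region and at base 2357 in the transcript without that splice. Such matches are frequent. Over the same length after the stop codon, TCTTGCC occurred in 9.54% of 8722 genes with a region at least as long as that of Myf5. GTGTCAT occurred at least once in 7.96% of 7739 genes for Dek, over 1286 bases. The share with 2 or more matches, as in Dek, was not computed. ATGTAGC occurred in 24.4% of 1851 genes for Cdkn1b, over 3439 bases, the length in the transcript without the splice. The spliced regions of Cdkn1b are 1280 and 1087 bases long, and the share over these shorter lengths was not computed. A match is a description of letters, and these libraries hold no measure of the targets.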

How the data were processed

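MicroRNA sequencing libraries of 2 biological replicates were used, for which the labels state a size under 30, with no unit. The authors deposited raw counts per microRNA gene, without a header. Judged by the values, its 3 columns count reads without regard to strand, reads in the sense of the gene and reads antisense to it. Assembly mm10 and annotation GENCODE M21 are given per the readme files, with the aligner and counting tool not given in the sources used here. GENCODE M21 matched every one of the 2202 identifiers. The tallies of unaligned, multiply aligned and unassigned reads stayed out of library totals; they made up 7.95, 68.6 and 2.14% of all reads in replicate 1 and 6.08, 69.7 and 1.71% in replicate 2.

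CPM used the gene-strand column. To each count in a ratio 0.5 was added. Genes with 10 or more counts over both libraries entered the exact binomial test, with library totals as odds and a threshold of 0.05 after Benjamini-Hochberg adjustment; edgeR and DESeq2 tests need groups to compare and could not be run. The coefficient of variation came from edgeR 4.0.16, and scaling alternatives from edgeR (TMM) and DESeq2 1.42.0 in R 4.3.3, on the tested genes. Tested on simulated counts without biological variation, the exact test called 57.9% of 57 tested genes changed 1.5-fold, 83.9% of 62 changed 3-fold and 1.56% of 257 unchanged. Other steps used matplotlib 3.10.9, scipy 1.17.1, numpy 2.4.6 and pandas 2.3.3 under Python 3.11.15. For 3′ regions the APPRIS principal transcript was taken, the longest where there were several.

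Genes named were the 4 members, their 3 nearest genes by level, neighbours within 10 kb, genes of the same seed and genes of fixed lists. Members and lists were chosen with earlier results of these data known. Other strand columns, scalings, offsets, count and CPM minimums, and each replicate left out, were tried as alternatives.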

Additional observations from a re-analysis of the deposited data

How the results depend on the processing

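No paired analysis was possible because the libraries form 1 group. Of 67 recomputed values, 65 held: ratios kept their direction and side of the threshold, levels moved by less than the SD between replicates, and counts of genes stayed within 1.5 times. Part of these could not fail. With 2 libraries, leaving 1 out always moves a mean by less than the SD. Offsets do not enter the test, and the either-strand ratio of Mir222 to Mir221 rests on the same counts. The number that held is therefore no measure of robustness. With a minimum of 10 CPM in both libraries, 2 of the 4 genes, Mir221 and Mir222, were detected instead of 4, since Mir31 and Mir489 lie below it in replicate 2. With DESeq2 size factors, which moved all log2 ratios by 0.13, 94 genes were called higher in replicate 2 instead of 55, and 80 higher in replicate 1 instead of 110; TMM gave 76 and 90. Under these scalings the ratios of the 4 genes stayed negative, with Mir221 at -0.86 and -0.81 and Mir489 at -0.64 and -0.60 with TMM and DESeq2. The summed level of the 3 other quiescence genes had a log2 ratio of -0.01 with library totals and 0.07 with TMM. Without replicate 1 or 2, the levels were 324 and 622 CPM for Mir221, 52.9 and 96.6 for Mir222, 9.39 and 14.6 for Mir31, and 2.03 and 3.18 for Mir489. The either-strand column gave the same counts for the 4 genes. A summed count of at least 50 left Mir489 untested. Depth limits Mir489 most, at 5 and 11 counts.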
